A study of Mus musculus with 8 samples.

Results

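The IL-6 family cytokines and receptor chains examined here are 9 genes, chosen by name: the ligands Lif, Osm, Clcf1 and Ctf1 and the receptor chains Lifr, Il6st, Osmr, Il6ra and Il11ra1. They are 9 of the 24537 genes in the count table, and all 9 had enough counts to be tested. Poly(A) RNA was sequenced from EpCAM+ cells sorted by flow cytometry from pancreatic tumours, without culture, with 1 library per mouse. The anti-LIF arm held 4 mice that received gemcitabine plus a neutralising antibody against LIF. The IgG arm held 4 mice that received gemcitabine plus control IgG. Values of an arm are listed in ascending order of the number in the library name. All 8 mice were FVB/NJ and carried, among other alleles, Tp53f/f and Rosa26LSL-Luc together with Pdx1-Cre. Cre under the Pdx1 promoter, active in the pancreatic lineage, switched on luciferase and deleted p53. Treatment began at 42 to 43 days of age, and the age is given as about 48 days. Gemcitabine, a nucleoside analogue used as chemotherapy, was given at 50 mg/kg on days 1 and 4, the antibody or IgG at 25 mg/kg on days 1, 3 and 5, and tumours were taken on day 6. Both arms received gemcitabine, so the comparison is of anti-LIF against IgG on top of gemcitabine. Transcripts were counted, so neither LIF protein nor its neutralisation was measured.

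Cytokines of the IL-6 family signal through gp130, the shared chain encoded by Il6st, and which other chains take part depends on the ligand. LIF and cardiotrophin-1 use gp130 with the LIF receptor, oncostatin M in mice mainly uses gp130 with the oncostatin M receptor, and IL-6 and IL-11 first bind their own alpha chains. The paired chains activate JAK kinases and STAT3, and in pancreatic cancer LIF is known as a signal between stromal, immune and tumour cells.

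Libraries held 15135457 to 18972281 counts in genes. The sort label was checked against marker lists. Markers counted as higher or lower passed the edgeR test given below at an adjusted p under 0.05. Of all genes tested, 15.7% were higher and 16.5% lower by that test. Epithelial markers held 0.230 to 0.439% of counts in anti-LIF libraries and 0.698 to 0.852% in IgG libraries, and 18 of 20 were lower with anti-LIF. Macrophage and monocyte markers held 3.56 to 5.16% in anti-LIF libraries and 2.05 to 2.59% in IgG libraries, and 15 of 20 were higher. Acinar markers held 0.309 to 1.67% in anti-LIF libraries and 0.0424 to 0.219% in IgG libraries, with 15 of 19 tested higher. Epcam, the antigen of the sort, averaged 305 ± 74.8 CPM with anti-LIF and 575 ± 76.8 CPM with IgG (SD, n = 4 each). Csf1r, the receptor of macrophage colony-stimulating factor, averaged 2710 ± 898 CPM with anti-LIF and 933 ± 154 CPM with IgG. Macrophage markers were thus present in every library of EpCAM+ cells. Lymphoid markers held 0.00454 to 0.00727% with anti-LIF and 0.00108 to 0.0036% with IgG (3 of 8 tested higher), and Ncr1 was at 0 in all libraries. Endothelial markers held 0.0102 to 0.0127% with anti-LIF and 0.00565 to 0.00861% with IgG (1 higher and 1 lower of 10). Fibroblast markers held 0.0275 to 0.104% with anti-LIF and 0.0275 to 0.0963% with IgG (2 of 14 higher). Neutrophil markers held 0.0208 to 0.0456% with anti-LIF and 0.0103 to 0.0346% with IgG (1 of 8 tested higher and 0 lower). At an unadjusted p under 0.05, 2 of them were higher and 2 lower. S100a8 of that list averaged 13.9 ± 8.58 CPM with anti-LIF and 28.4 ± 7.23 CPM with IgG and did not pass (edgeR adjusted p = 0.0802). It passed as lower by DESeq2, limma-voom and limma on FPKM (adjusted p 0.0368 to 0.0426), and by edgeR without KPCL-PCC_310_GA (adjusted p = 0.0166). Endocrine markers held 0.00453 to 0.0197% with anti-LIF and 0.00289 to 0.0137% with IgG. The part of these cell types in the results below was not tested, and in bulk samples fewer cells of a type and less RNA per cell cannot be told apart.

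Lifr, the gene with the largest rise among the 9, is shown by the 2 windows at which its transcripts in the deposited tables start, because the count and FPKM tables use different ones. The sequences are RefSeq windows on GRCm38.p6, from 250 bases before to 50 bases after a transcript start, on the plus strand, with CpG dinucleotides in capitals. The first, chr15:7129322-7129621, belongs to the transcript behind the FPKM values, and the second, chr15:7140292-7140591, to the transcript behind the counts.
Lifr upstream start: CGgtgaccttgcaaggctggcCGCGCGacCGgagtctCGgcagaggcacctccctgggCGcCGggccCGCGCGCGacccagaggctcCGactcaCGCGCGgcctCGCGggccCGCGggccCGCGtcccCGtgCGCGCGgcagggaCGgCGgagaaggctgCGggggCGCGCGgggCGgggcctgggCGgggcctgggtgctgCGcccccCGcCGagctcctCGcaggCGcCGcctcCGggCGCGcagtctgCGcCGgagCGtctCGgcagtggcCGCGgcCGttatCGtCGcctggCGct
Lifr downstream start: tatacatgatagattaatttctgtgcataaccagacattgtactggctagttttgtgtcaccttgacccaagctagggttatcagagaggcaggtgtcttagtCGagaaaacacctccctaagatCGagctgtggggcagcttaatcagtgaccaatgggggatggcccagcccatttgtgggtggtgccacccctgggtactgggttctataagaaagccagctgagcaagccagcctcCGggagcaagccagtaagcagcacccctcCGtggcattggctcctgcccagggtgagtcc
The upstream window holds 53 CpG at a GC content of 81.3%, and 99.5% of all 32851 windows hold fewer. The downstream window holds 4 CpG at a GC content of 53.3%, and 31.4% of windows hold fewer, against a median over all windows of 7 CpG and 52.7% GC. The motif TTCNNNGAA, which STAT proteins bind and which reads the same on both strands, was in 0 of the 9 windows matched to 7 of the genes, against 8.3% of all windows. That says only that these letters are not in these windows.

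With anti-LIF, 3 of the 9 genes were higher and 2 were lower at an adjusted p under 0.05, by edgeR's quasi-likelihood test with Benjamini-Hochberg adjustment over all 14711 genes tested. Lif, Lifr and Il11ra1 rose, and Clcf1 and Ctf1 fell. Of all genes tested, 32.2% passed in either direction, 15.7% higher and 16.5% lower. The arms did not overlap for the same 5 of 9, against 35.7% of all genes (17.6% higher and 18.2% lower). The median log2 fold change of the 9 was 0.18, beside -0.00635 over all genes. The counts of 3 higher and 2 lower came out the same under 8 other scalings, tests, units and filters. They became 7 higher when libraries were scaled to the epithelial markers, which moved the median of all genes by 1.03, and 7 lower when scaled to the myeloid markers, which moved it by -1.02. Each direction below is therefore relative to the bulk of genes.

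**Figure D1:**
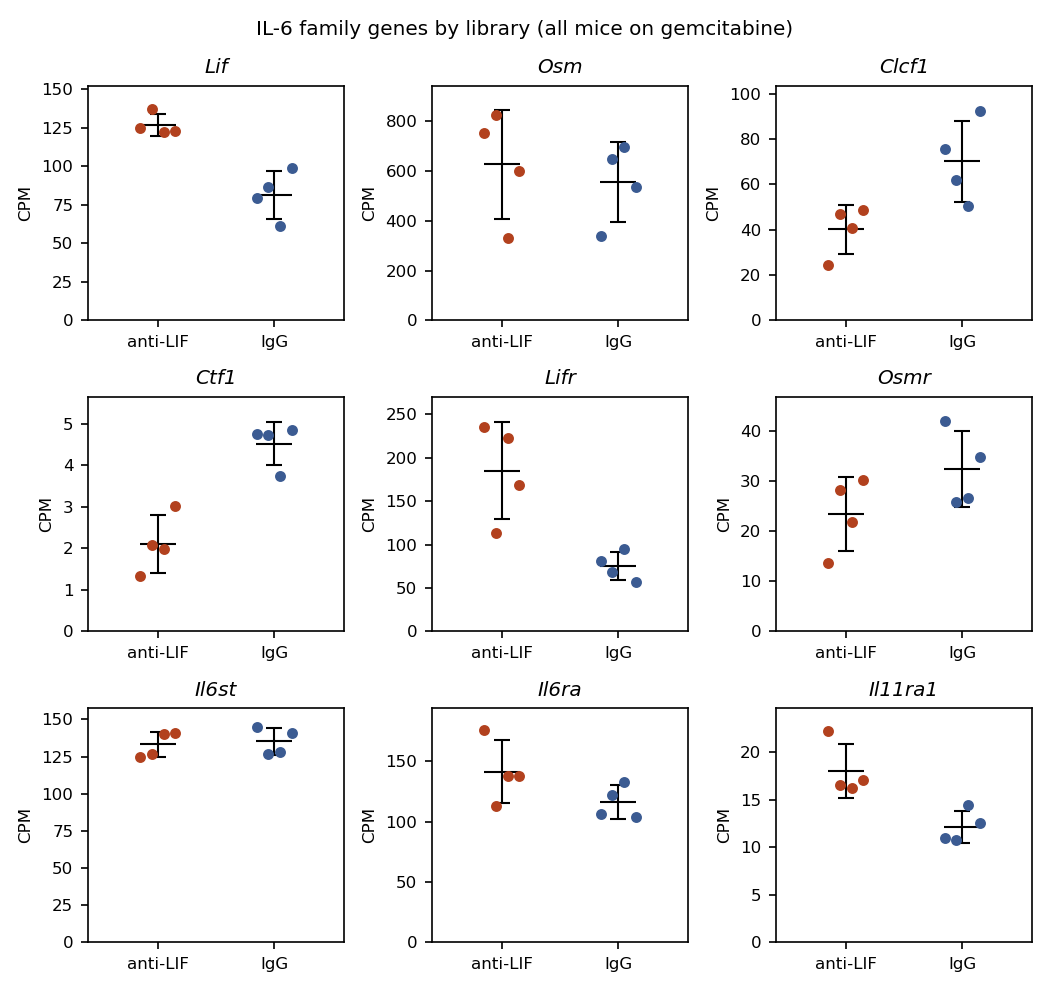
CPM (counts scaled to the TMM library size) of the 9 genes, 1 point per library, with the mean and SD of each arm. The 4 anti-LIF libraries lie above all 4 IgG libraries for Lif, Lifr and Il11ra1 and below them for Clcf1 and Ctf1.

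Lif, the ligand the antibody binds, lies at chr11:4266796-4272514 (mm10, plus strand) by its count-table transcript, as coordinates are given for all 9 genes. The Lif transcript of the FPKM table starts upstream, at 4257568. Lif had 125, 137, 122 and 123 CPM in the anti-LIF libraries, against 79.1, 86.4, 61.4 and 98.8 CPM in the IgG libraries. All 4 anti-LIF libraries were above every IgG library, and they were the more alike. Lif was 1.56-fold higher with anti-LIF (log2 fold change 0.64 ± 0.13 SE, edgeR adjusted p = 0.00964), and 0.65 above the median of all genes. Scaled to the myeloid markers the sign turned (-0.39, adjusted p = 0.149), while Lif stayed 0.63 above the median of all genes there.

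Osm encodes oncostatin M, made mainly by myeloid cells, and lies at chr11:4236785-4241026 on the plus strand. Osm is 25.8 kb from the count-table transcript of Lif and nearer to the upstream Lif start. It had 753, 822, 329 and 601 CPM in the anti-LIF libraries, against 337, 648, 697 and 536 CPM in the IgG libraries. The arms overlapped, with the lowest values in anti-LIF library KPCL-PCC_354_GA and IgG library KPCL-PCC_203_G. The difference did not pass (log2 fold change 0.18 ± 0.31 SE, edgeR adjusted p = 0.688). It was 1.19 on epithelial scaling and -0.85 on myeloid scaling.

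Clcf1 encodes cardiotrophin-like cytokine factor 1, a ligand of the ciliary neurotrophic factor receptor, and lies at chr19:4214238-4223505 on the plus strand. It had 24.6, 46.8, 40.6 and 48.7 CPM in the anti-LIF libraries, against 75.6, 62.1, 50.7 and 92.4 CPM in the IgG libraries. The arms did not overlap, but the highest anti-LIF library and the lowest IgG library were close. Clcf1 was 1.75-fold lower with anti-LIF (log2 fold change -0.81 ± 0.24 SE, edgeR adjusted p = 0.0337), and its sign turned on epithelial scaling (0.17). Its call was lost without KPCL-PCC_354_GA of the anti-LIF arm (adjusted p = 0.0744) or without IgG library KPCL-PCC_203_G (adjusted p = 0.0695), KPCL-PCC_343_G (adjusted p = 0.0587) or KPCL-PCC_393_G (adjusted p = 0.0842), which left Ctf1 as the 1 lower gene of the 9.

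Ctf1 encodes cardiotrophin-1, a ligand of gp130 and the LIF receptor, and lies at chr7:127712937-127718187 on the plus strand. It was the lowest of the 9, with 1.34, 2.07, 1.98 and 3.02 CPM in the anti-LIF libraries, against 4.76, 4.72, 3.75 and 4.86 CPM in the IgG libraries. Behind these values stood 21, 31, 32 and 45 counts with anti-LIF and 83, 86, 74 and 90 counts with IgG. Every anti-LIF library was below every IgG library. Ctf1 was 2.15-fold lower with anti-LIF (log2 fold change -1.10 ± 0.25 SE, edgeR adjusted p = 0.0129), and -0.14 on epithelial scaling (adjusted p = 0.645). Its paralogue Ctf2 had 4 counts with anti-LIF and 6 with IgG in all, too few to be tested.

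Lifr encodes the LIF receptor, and its count-table transcript lies at chr15:7140542-7197489 on the plus strand. The Lifr transcript of the FPKM table starts upstream, at 7129572. Lifr had 235, 113, 223 and 169 CPM in the anti-LIF libraries, against 81.4, 68.3, 94.7 and 57.2 CPM in the IgG libraries. The anti-LIF libraries were all higher and differed among themselves more than the IgG libraries did. Lifr was 2.46-fold higher with anti-LIF (log2 fold change 1.30 ± 0.24 SE, edgeR adjusted p = 0.00663). It was the only one of the 9 to keep a positive sign on myeloid scaling, at 0.25 (adjusted p = 0.246). The Lifr transcript of the FPKM table is 2825 bases long against 9641 in the count table and stops short of the last exons. There, limma on log2(FPKM + 1) gave 1.10 (adjusted p = 0.00798), a scale that understates changes of low genes. FPKM is scaled by library total, and the counts scaled by library size alone gave 1.13 (edgeR adjusted p = 0.00799). The reads recovered for the short transcript were 1551, 692, 1290 and 910 with anti-LIF and 604, 421, 667 and 384 with IgG. Per kilobase, the short transcript had 1.22 to 1.44 times the reads of the long one with anti-LIF and 1.16 to 1.45 times with IgG. These ratios overlapped between the arms. The count table held 1005 to 2320 more Lifr reads than the short transcript with anti-LIF and 675 to 1203 more with IgG.

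Il6st, which encodes gp130, lies at chr13:112464070-112506860 on the plus strand. It had 125, 127, 140 and 141 CPM in the anti-LIF libraries, against 145, 127, 128 and 141 CPM in the IgG libraries. The arms overlapped throughout, and the difference was -0.02 ± 0.08 SE on the log2 scale (edgeR adjusted p = 0.847). With epithelial scaling it was 1.00 and with myeloid scaling -1.04.

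Osmr, the oncostatin M receptor chain, lies at chr15:6813577-6874313 on the minus strand. Osmr is 266.2 kb from the count-table transcript of Lifr and nearer to the upstream Lifr start. It had 13.7, 28.2, 21.8 and 30.2 CPM in the anti-LIF libraries, against 41.9, 25.9, 26.7 and 34.9 CPM in the IgG libraries. The arms overlapped, and the log2 difference of -0.46 ± 0.25 SE did not pass (edgeR adjusted p = 0.192). It was 0.50 on epithelial scaling and -1.43 on myeloid scaling.

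Il6ra, the alpha chain for IL-6, lies at chr3:89869324-89913196 on the minus strand. It had 176, 113, 138 and 138 CPM in the anti-LIF libraries, against 106, 122, 133 and 104 CPM in the IgG libraries. The arms overlapped, and the log2 difference of 0.28 ± 0.14 SE did not pass (edgeR adjusted p = 0.152). It was 1.35 on epithelial scaling and -0.77 on myeloid scaling.

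Il11ra1, the alpha chain for IL-11, lies at chr4:41760443-41769473 on the plus strand. It had 22.2, 16.5, 16.2 and 17.1 CPM in the anti-LIF libraries, against 11.0, 10.7, 14.4 and 12.5 CPM in the IgG libraries. Every anti-LIF library was above every IgG library. Il11ra1 was 1.48-fold higher with anti-LIF (log2 fold change 0.57 ± 0.15 SE, edgeR adjusted p = 0.0215), and -0.47 on myeloid scaling. It no longer passed without IgG library KPCL-PCC_203_G (adjusted p = 0.0508) or KPCL-PCC_343_G (adjusted p = 0.0609). The near-identical copy Il11ra2 had 1 count over all libraries, and how reads fitting both copies were counted is not stated.

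**Figure D2:**
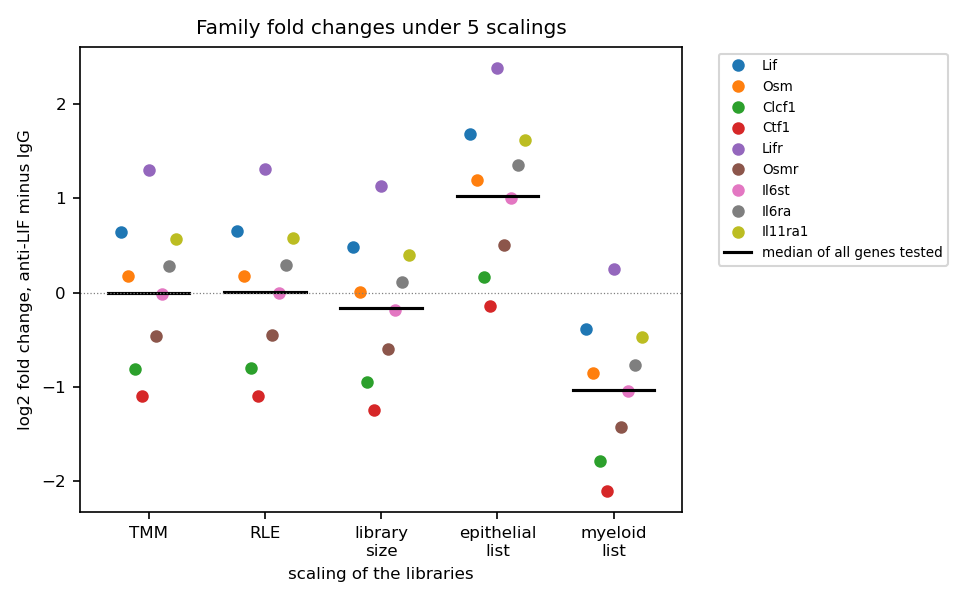
Log2 fold change (anti-LIF over IgG) of the 9 genes under each library scaling, with the median of all genes. Scaling to epithelial or myeloid markers shifts all 9 together, and Lifr keeps a positive value under every scaling, down to 0.25.

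Levels of different genes were set side by side per length, in FPKM (reads scaled by transcript length and library total). Osm was the highest, at 249 ± 85.4 FPKM with anti-LIF and 241 ± 62.4 FPKM with IgG (SD, n = 4 each). With anti-LIF, Il6ra followed at 31.7 ± 3.84 FPKM, and Lif (23.7 ± 2.26), Lifr (19.0 ± 5.10), Il6st (18.7 ± 2.10) and Clcf1 (16.6 ± 5.21) came next, each overlapping its neighbour. Below them were Il11ra1 at 7.76 ± 0.66, Osmr at 3.76 ± 1.33 and Ctf1 at 1.21 ± 0.438 FPKM. With IgG, Clcf1 (31.5 ± 9.08 FPKM) and Il6ra (28.6 ± 2.4) overlapped, as did Il6st (20.8 ± 2.14) and Lif (16.7 ± 3.49). Lifr (8.27 ± 2.16 FPKM), Il11ra1 (5.72 ± 0.762) and Osmr (5.62 ± 1.52) followed with IgG, each overlapping its neighbour, and Ctf1 was lowest at 2.81 ± 0.436. The place of Lifr depends on the transcript. On the longer one of the count table it had 382.3, 176.0, 374.4 and 261.6 reads per kilobase with anti-LIF, against 147.3, 128.9, 194.0 and 109.8 with IgG. Il6st had 359.5, 351.0, 417.1 and 385.8 reads per kilobase with anti-LIF, against 464.4, 426.7, 465.5 and 481.1 with IgG, so Lifr was below it in 3 of 4 anti-LIF libraries and in all 4 IgG libraries.

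**Figure D3:**
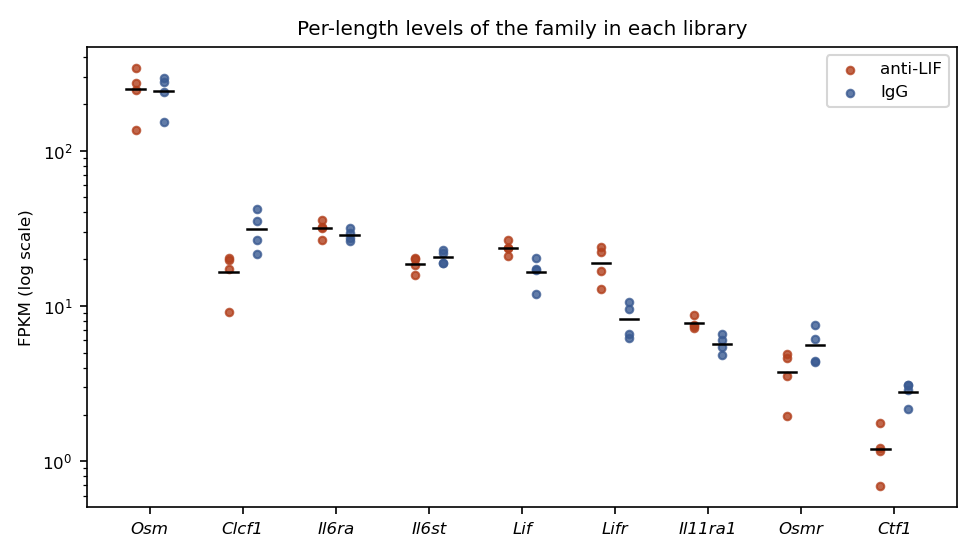
FPKM of the 9 genes on a log axis, 1 point per library, by arm. Osm stands above all others in both arms, and Lifr, on the shorter transcript of the FPKM table, averages 19.0 FPKM with anti-LIF and 8.27 FPKM with IgG, beside 18.7 and 20.8 FPKM for Il6st.

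A ratio of 2 genes within a library does not depend on how libraries are scaled. There were 5 such ratios, each compared by an exact two-sided permutation test, for which 0.0286 is the smallest p possible, with adjustment over the 5. The ratios share genes with each other and come from the same libraries as the fold changes above. They are therefore independent neither of each other nor of those fold changes. Lifr to Il6st was 1.53, 0.698, 1.09 and 0.835 in the anti-LIF libraries, against 0.46, 0.349, 0.507 and 0.283 in the IgG libraries. All anti-LIF libraries were higher, by 2.55-fold on average (log2 difference 1.35, exact permutation p = 0.0286, adjusted 0.0476). On the count-table transcript, an alternative chosen after seeing the data, the ratio was 1.06, 0.501, 0.898 and 0.678 in the anti-LIF libraries, against 0.317, 0.302, 0.417 and 0.228 in the IgG libraries (log2 difference 1.29). Il11ra1 to Il6st was 0.553, 0.403, 0.358 and 0.376 in the anti-LIF libraries, against 0.236, 0.254, 0.349 and 0.274 in the IgG libraries, 1.51-fold higher (log2 difference 0.60, exact permutation p = 0.0286, adjusted 0.0476). Lifr to Osmr was 12.4, 2.79, 6.23 and 3.45 in the anti-LIF libraries, against 1.41, 1.52, 2.16 and 1.01 in the IgG libraries, 3.54-fold higher (log2 difference 1.82, exact permutation p = 0.0286, adjusted 0.0476; 1.76 on the count-table transcript). Osmr to Il6st differed by -0.47 on the log2 scale (exact permutation p = 0.171, adjusted 0.214) and Il6ra to Il6st by 0.30 (exact permutation p = 0.229). These are ratios over mixed cells, in which the macrophage and epithelial markers moved as given above.

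**Figure D4:**
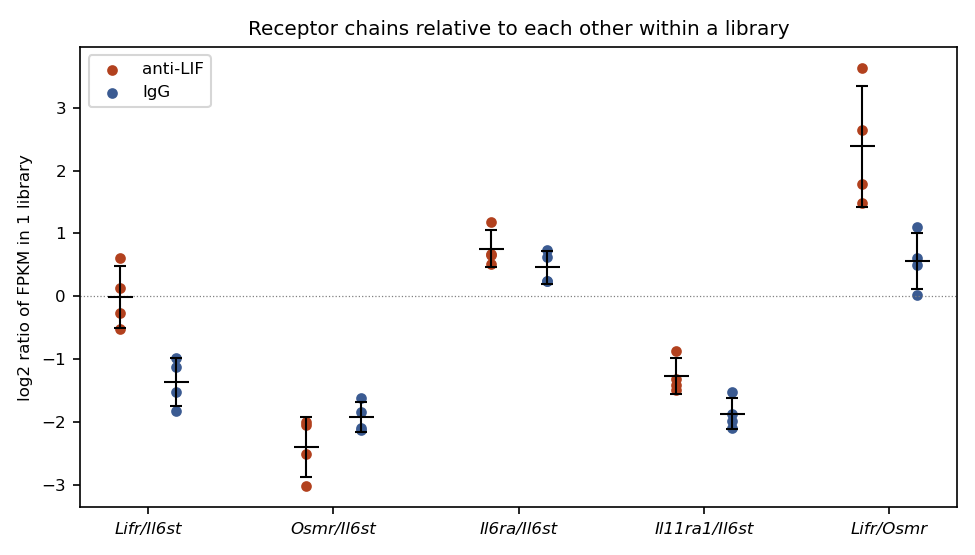
Log2 ratio of FPKM of receptor chains within each library, 1 point per library, by arm. Lifr to Il6st, Il11ra1 to Il6st and Lifr to Osmr lie higher in all 4 anti-LIF libraries than in any IgG library, and the other ratios overlap.

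A wider list held 17 other ligands, chains and gp130-like receptors of the IL-6/IL-12 family. It took in receptors that do not themselves use gp130, such as Csf3r and Lepr. Of the 17, 12 were tested, of which 3 rose and 2 fell (median log2 fold change 0.13), beside 15.7% and 16.5% of all genes. On epithelial scaling 7 rose, and on myeloid scaling 2 rose and 5 fell. The 2 that fell became 1 without KPCL-PCC_203_G of the IgG arm or any 1 of the anti-LIF libraries KPCL-PCC_354_GA, KPCL-PCC_310_GA and KPCL-PCC_227_GA. They became 0 by edgeR without KPCL-PCC_343_G or KPCL-PCC_393_G of the IgG arm. Il27ra, the receptor chain for IL-27, had 17.9, 10.7, 14.0 and 10.0 CPM in the anti-LIF libraries, against 2.58, 1.21, 2.03 and 1.19 CPM in the IgG libraries. It was 7.48-fold higher with anti-LIF (log2 fold change 2.90 ± 0.31 SE, edgeR adjusted p = 0.00235). Ebi3, a subunit of IL-27, was 3.20-fold higher at 52.2, 32.8, 31.5 and 43.5 CPM with anti-LIF, against 16.0, 9.17, 13.8 and 10.9 CPM with IgG (edgeR adjusted p = 0.00324). Csf3r, the receptor of granulocyte colony-stimulating factor and also on the neutrophil list, was 3.24-fold higher (178, 96.1, 72.5 and 97.8 CPM with anti-LIF, against 57.5, 21.9, 30.0 and 27.8 CPM with IgG; edgeR adjusted p = 0.00969). The arms did not overlap for these 3 genes.

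Cntfr, the alpha chain of the ciliary neurotrophic factor receptor, named after its values were seen, averaged 1.28 ± 0.201 CPM with anti-LIF and 2.24 ± 0.662 CPM with IgG and did not pass (edgeR adjusted p = 0.0503). It passed without IgG library KPCL-PCC_345_G (adjusted p = 0.0479), and by library size alone, DESeq2, limma on FPKM or a stricter filter on low counts (adjusted p 0.032 to 0.0494). Lepr, the leptin receptor, was 2.75-fold lower (48.7, 101, 19.8 and 95.8 CPM with anti-LIF, against 140, 194, 149 and 246 CPM with IgG; edgeR adjusted p = 0.0366) and lost its call without KPCL-PCC_227_GA of the anti-LIF arm, or without IgG library KPCL-PCC_345_G, KPCL-PCC_393_G or KPCL-PCC_343_G (adjusted p 0.0548 to 0.0876). Il6 averaged 71.9 ± 17.3 CPM with anti-LIF and 90.1 ± 19.9 CPM with IgG (edgeR adjusted p = 0.269). Il11 averaged 3.6 ± 2.84 CPM with anti-LIF and 3.23 ± 2.46 CPM with IgG (edgeR adjusted p = 0.874). Neither ligand with an alpha chain among the 9 passed the test.

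**Figure D5:**
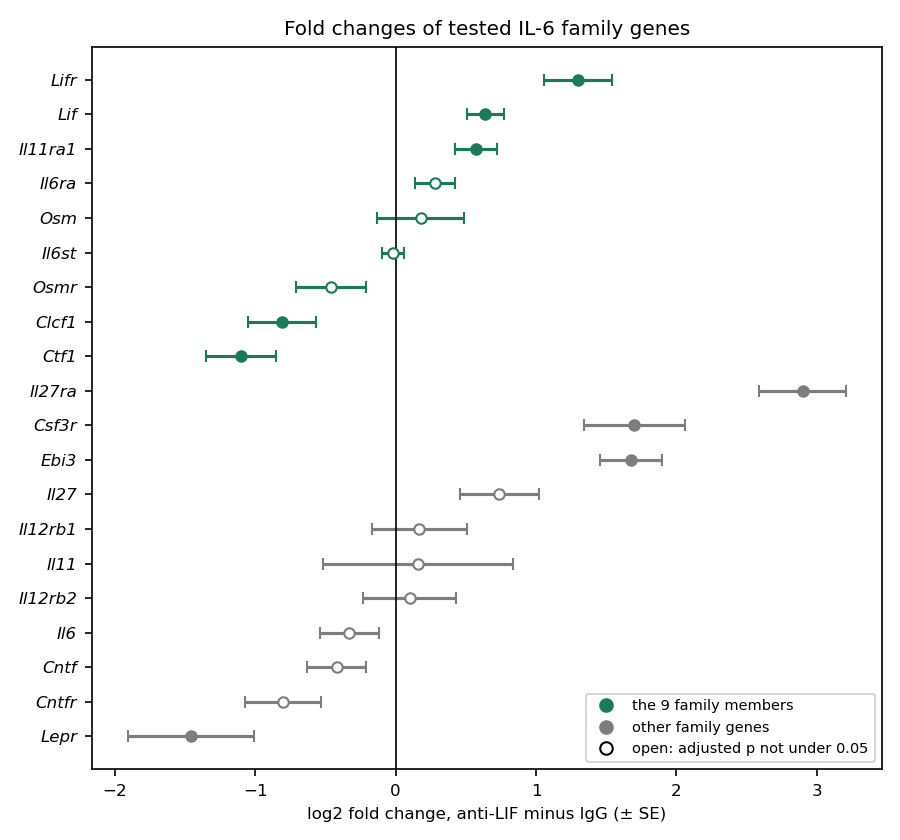
Log2 fold change (anti-LIF over IgG) with SE for the 9 genes and 11 of the genes tested from the wider IL-6/IL-12 list, with open points where the adjusted p was not under 0.05. Il27ra is highest at 2.90 and Lepr lowest at -1.46.

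Downstream of gp130, 7 of 20 kinases, STATs, adaptors and inhibitors were higher (beside 15.7% of all genes), and 0 were lower (beside 16.5% of all genes) by edgeR at an adjusted p under 0.05 (1 at an unadjusted p under 0.05; 0 by DESeq2 and limma-voom, 2 by limma on FPKM, 3 by library size alone). The median log2 fold change was 0.23; on epithelial scaling all 20 were higher, and on myeloid scaling 16 were lower. Without IgG library KPCL-PCC_343_G or KPCL-PCC_393_G, 4 were higher. Ptpn6, a phosphatase of blood cells, averaged 335 ± 58.0 CPM with anti-LIF and 176 ± 23.1 CPM with IgG, 1.90-fold higher (edgeR adjusted p = 0.0044). The adaptor Grb2 was 1.33-fold higher and the kinase Tyk2 1.48-fold higher (edgeR adjusted p = 0.0148 and 0.0153); Ptpn6, Grb2 and Tyk2 turned sign on myeloid scaling. Stat3, the main STAT of this family, averaged 317 ± 34.0 CPM with anti-LIF and 331 ± 15.1 CPM with IgG (edgeR adjusted p = 0.651; 0.0485, at a log2 fold change of -0.23, by library size alone). Socs3, the feedback inhibitor of gp130, averaged 692 ± 185 CPM with anti-LIF and 553 ± 89.1 CPM with IgG (edgeR adjusted p = 0.255).

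Of 28 textbook STAT3 target genes, 24 were tested, of which 6 were higher and 1 lower (median log2 fold change 0.29), beside 15.7% and 16.5% of all genes. On epithelial scaling 23 were higher, and on myeloid scaling 3 were higher and 16 lower. The number lower was 2 without KPCL-PCC_310_GA of the anti-LIF arm, by library size alone and by limma on FPKM. It was 0 without anti-LIF library KPCL-PCC_354_GA or KPCL-PCC_391_GA, or without IgG library KPCL-PCC_203_G, KPCL-PCC_343_G or KPCL-PCC_393_G. Saa3, an acute-phase protein, was 9.95-fold higher, at 7200, 2270, 907 and 2710 CPM with anti-LIF, against 484, 210, 236 and 385 CPM with IgG (edgeR adjusted p = 0.00638). Without anti-LIF library KPCL-PCC_227_GA it was 5.98-fold higher (edgeR adjusted p = 0.0056). Saa1 had 68, 29, 11 and 63 counts with anti-LIF, against 1, 0, 2 and 4 counts with IgG (edgeR adjusted p = 0.00492), and reads shared with Saa2 are uncertain. Reg3b, a secreted lectin that injured acinar cells express, was 3.89-fold higher (edgeR adjusted p = 0.00797), with the same uncertainty towards Reg3g. Batf, a transcription factor of immune cells, was 1.81-fold higher (edgeR adjusted p = 0.00896) and turned sign on myeloid scaling. Ccnd1, encoding cyclin D1, was 1.82-fold lower (edgeR adjusted p = 0.0479) with overlapping arms, turned sign on epithelial scaling, and no longer passed without any 1 of 6 libraries: anti-LIF KPCL-PCC_227_GA, KPCL-PCC_354_GA or KPCL-PCC_391_GA, or IgG KPCL-PCC_393_G, KPCL-PCC_203_G or KPCL-PCC_343_G (adjusted p 0.0525 to 0.115).

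The genes whose log2 CPM followed Lif most closely over the 8 libraries were Ptgs2 (Pearson r 0.97), Kcnt2 (0.964) and Cbx1 (0.963). Kcnt2 was low, at 1.69 ± 0.057 CPM with anti-LIF and 0.842 ± 0.288 CPM with IgG. For Lifr they were Serp1 (0.992), Arhgef6 (0.991) and Ptpro (0.991). With the mean of each arm removed, r was 0.86, 0.85 and 0.84 for the genes like Lif and 0.98, 0.97 and 0.96 for those like Lifr. A Pearson r over 0.9 was reached by 940 genes for Lifr and 44 for Lif. The points share libraries, arms and marker content, the named genes were picked as the closest of all genes tested, and the values are a description.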

How the data were processed

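Per the submitters' processing notes, reads were checked with FastQC 0.11.2 and aligned to mm10 with STAR 2.4.0k. Per the file headers, HOMER counted exonic reads, keeping 1 transcript per gene. The deposited count table holds raw counts, and the deposited FPKM table holds FPKM, per transcript length and library total. The tables use the same transcript for 4 of the 9 genes. The sources used here do not state the strand setting or annotation version, so antisense reads cannot be told apart.

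Counts were tested in R 4.3.3 with edgeR 4.0.16 (TMM, filterByExpr, quasi-likelihood test, Benjamini-Hochberg, threshold 0.05), which kept 14711 genes. Fold changes are anti-LIF over IgG, and SE was derived from the F statistic. Alternatives used limma 3.58.1, DESeq2 1.42.0, other scalings and filters, and 1 and 0.1 as FPKM pseudocounts. Scripts were tested on simulated counts, where edgeR recovered 13 of 67 changes of 1.5-fold, 47 of 67 of 2-fold and 60 of 66 of 4-fold. Of 123 calls there, 3 were false. A gene that did not pass is therefore not shown to be unchanged. Likeness used log2 CPM with a prior count of 2. Named genes were the 9, the called genes of each list (at most 4 per direction, by lowest p), and a few fixed genes. The 9 genes and all lists were chosen with earlier results of these data known. Unused columns of single samples numbered 0. Protein sequences were not analysed here, and 1 allele and some genes of the lists are not reported here.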

Additional observations from a re-analysis of the deposited data

Results flagged for a closer look

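In 4 of 78 arms checked, 1 library stood apart from the other 3 by Dixon's criterion, which chance alone meets in about 1 in 20 arms. Il11ra1 was at 22.2 CPM in anti-LIF library KPCL-PCC_227_GA, against 16.2, 16.5 and 17.1 CPM in the other anti-LIF libraries. Epcam was at 194 CPM there, against 326, 347 and 353 CPM. Ctf1 was at 3.75 CPM in IgG library KPCL-PCC_345_G, against 4.72, 4.76 and 4.86 CPM. Tyk2 was at 91.2 CPM in IgG library KPCL-PCC_393_G, against 106, 107 and 109 CPM.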

How the results depend on the processing

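Scaling to a marker list moved the genes together by construction, by similar but not equal amounts. Relative to the median of all genes, Osmr was at -0.46 in the main run, -0.52 on epithelial scaling and -0.41 on myeloid scaling. Sign changes are listed for named genes that passed in the main run or on that scaling. Il11 passed in neither and went from 0.16 to -1.08 on myeloid scaling. On myeloid scaling the sign turned for Lif (-0.39), Osm (-0.85), Il6ra (-0.77), Il11ra1 (-0.47), Ptpn6 (-0.13), Grb2 (-0.63), Tyk2 (-0.48), Batf (-0.21), Socs3 (-0.74), Ptprc (-0.15), Ptgs2 (-0.24), Kcnt2 (-0.05), Cbx1 (-0.77), Serp1 (-0.65) and Arhgef6 (-0.07). On epithelial scaling it turned for Il6st (1.00), Osmr (0.50), Clcf1 (0.17), Ccnd1 (0.09), Il6 (0.71), Stat3 (0.99) and Epcam (0.06). Over all genes, 2303 were higher and 2428 lower. The higher genes numbered 1430 by library size alone, 1535 by limma on log2(FPKM + 0.1), 11271 on epithelial scaling and 215 on myeloid scaling, and the lower ones 3567 by library size alone, 3344 by limma on log2(FPKM + 0.1), 175 on epithelial scaling and 11954 on myeloid scaling. Among the 9 genes, epithelial scaling gave 7 higher and 0 lower by edgeR, where Ctf1 alone had a negative sign (adjusted p = 0.645), and myeloid scaling 0 higher and 7 lower, where Lifr alone had a positive sign (adjusted p = 0.246). Leaving out 1 library at a time gave 1467 to 2218 higher and 1507 to 2136 lower genes, both lowest without IgG library KPCL-PCC_343_G, and 1521 lower without anti-LIF library KPCL-PCC_354_GA. Among the 9 it gave 2 to 3 higher and 1 to 2 lower, with 1 lower without anti-LIF library KPCL-PCC_354_GA or IgG library KPCL-PCC_203_G, KPCL-PCC_343_G or KPCL-PCC_393_G. The cause of these changes was not tested, and the marker scalings do not test one. Ctf1 rests on 21 to 90 reads per library. The 5 ratios kept their direction without any 1 library, but 7 libraries cannot reach the threshold. Of 162 alternatives to the fold changes of the 9 genes, 143 kept the call, and kept the direction where the gene passed. Genes that did not pass could change sign among these, as Il6st did between -0.05 and 0.01 when 1 library was left out. No library number occurs in both arms, so no paired analysis was possible because nothing pairs the mice.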

Other observations

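Among genes of the wider IL-6/IL-12 list left untested for low counts, Il31ra had 9, 2, 44 and 5 counts in the anti-LIF libraries and 31, 5, 10 and 4 counts in the IgG libraries, and Il31 had 0 in all.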
